A study of Mus musculus with 13 samples.

Results

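WNT ligands, their frizzled receptors and the secreted proteins that adjust their signal were examined in cerebral meninges taken from newborn mice. The members were all genes with a symbol made of Wnt, Fzd, Sfrp, Dkk or Rspo and a number, with an a or b after the number for some WNT ligands. The rule took in 41 of 19938 tested genes, namely 19 Wnt genes, 10 Fzd genes, 4 Sfrp genes, 4 Dkk genes and 4 Rspo genes. Each gene was read from the brightest probe set that carried its symbol alone, and every annotated gene of the rule had such a probe set.

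Affymetrix Mouse Gene 1.0 ST arrays were used for 13 littermate pups (1 litter), with RNA of 1 pup on each array. The mutants were 4 Pdgfc-/-; Pdgfra GFP/+ pups, which lack the growth factor PDGF-C and carry a single working copy of Pdgfra, the gene of its receptor. In the Pdgfra GFP allele a nuclear green fluorescent protein takes the place of the receptor and marks cells that use the gene. Both changes were present in the whole animal and not in a chosen cell type. The controls were 9 littermates on the same C57BL6 background, in which 5 genotypes were pooled. With both Pdgfra copies intact these were Pdgfc+/+, Pdgfc+/- or Pdgfc-/-, and with a GFP allele they were either Pdgfc+/+; Pdgfra GFP/+ or Pdgfc+/-; Pdgfra GFP/+. Which control had which of these is not in the labels.

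WNT proteins are lipid-modified ligands that bind frizzled receptors together with the co-receptors LRP5 and LRP6, and the signal then stabilises β-catenin, which works with TCF/LEF factors in the nucleus. Secreted frizzled-related proteins (SFRP) bind WNT ligands outside the cell, and most Dickkopf proteins (DKK) bind the co-receptors. R-spondins (RSPO) raise the signal by keeping frizzleds at the cell surface. The meninges are a fibroblast-rich covering of the brain that secretes signals to the cortex beneath, and WNT ligands of neural tissue are known to act on the vessels of the brain.

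Of the 41 members, 4 rose (9.76%) and 7 fell (17.1%) in mutant meninges, while 8.58% of all tested genes rose and 6.31% fell. Together 11 members (26.8%) passed the test, against 14.9% of all tested genes. Wnt7b, Sfrp2, Fzd3 and Wnt7a rose, and Rspo2, Wnt6, Dkk2, Rspo3, Fzd4, Sfrp1 and Wnt4 fell. A gene rose or fell where limma gave a Benjamini-Hochberg adjusted p under 0.05 over all tested genes, and fold changes are on the log2(intensity + 16) scale, which understates the fold of dim probe sets. In tissue RNA, fewer cells of a type and less RNA per cell cannot be told apart. All mutants lay above all controls in 3 members (7.32%; 6.4% of tested genes) and below all controls in 6 members (14.6%; 3.04% of tested genes). The share of members that rose was close to that of all genes, and the median log2 fold change of the members was 0.0044 beside 0.0043 for all tested genes. The split of 4 rises and 7 falls became 4 and 13 with quantile normalization, where 31.7% of members and 18.1% of all genes fell. It became 4 and 12 with each array centred on its median, where 29.3% of members and 14.4% of all genes fell. With arrays centred on meningeal fibroblast genes, a step that raised the median of all genes to 0.40, it became 10 and 6, and the share that rose was 24.4% of members and 43.7% of all genes.

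**Figure D1:**
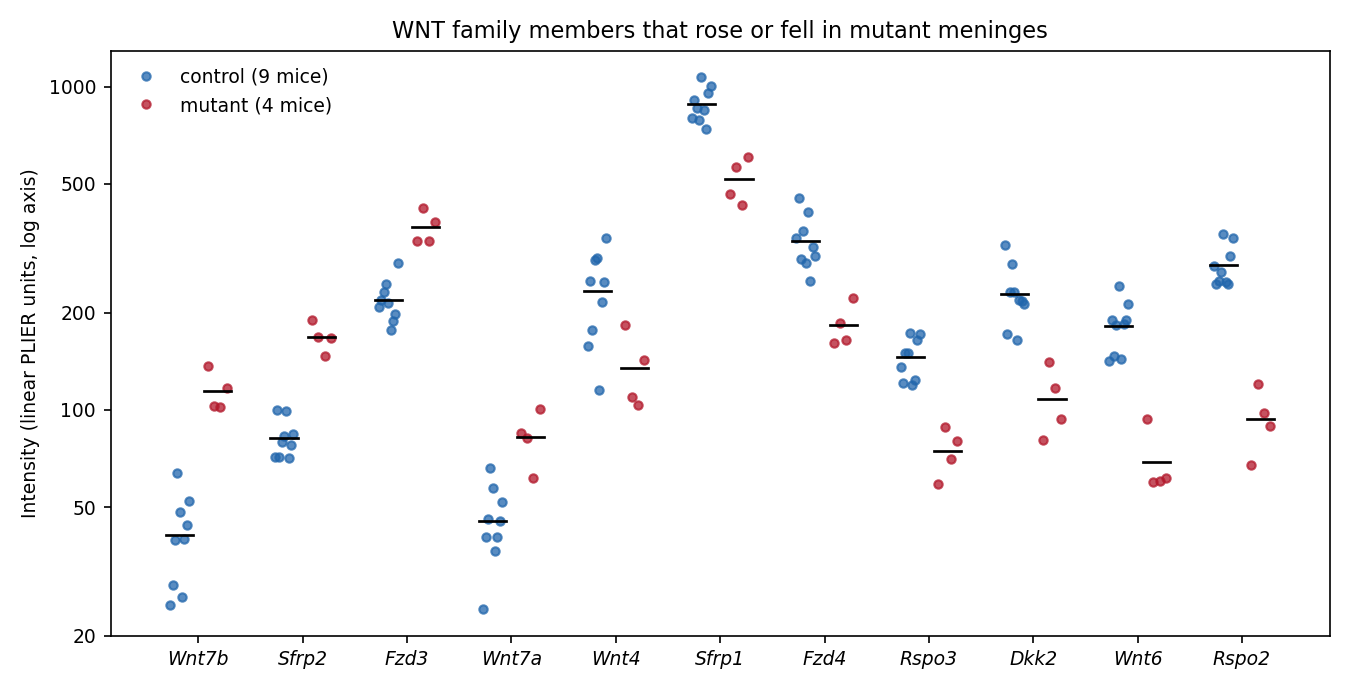
Intensity (linear PLIER units, log axis) of the 11 members that passed the test, with 1 point per mouse, controls (n = 9) in blue, mutants (n = 4) in red and the group mean as a bar. The groups are apart for 9 members and overlap for Wnt7a and Wnt4.

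The arrays differed in brightness and in cell type markers. The median intensity over the tested genes ran from 84.6 to 125 in mutants and from 74.9 to 123 in controls, and mutant 3 was the lowest mutant for 27 of the 41 members. Mutant Pdgfc intensity was 25.7 ± 3.41 (SD, n = 4), and that of controls was 164 ± 86.8 (SD, n = 9). Control 2 read 5.88, and the rest of the controls 103 to 275. Eif2s3y, a Y-linked gene, exceeded Xist, which marks female cells, in all 4 mutants but in 3 controls (1, 5 and 8), and with these mice alone the same 11 members were called in the same directions. Of 14 meningeal fibroblast markers Col1a1 and Col3a1 were higher in mutants, Ptgds, Slc6a13, Crabp2 and Ogn were lower, and 8 did not pass the test. Their sum was 27150 to 41440 in mutants and 34700 to 45720 in controls.

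All 10 neuron markers, among them Tubb3, Snap25 and Dcx, rose in mutants, and their summed intensity was 11430 to 14450 in mutants and 1370 to 3671 in controls. Of 8 neural progenitor markers 2 rose, with sums of 4206 to 6530 and 2800 to 4206. Of 10 endothelial markers 6 fell, with sums of 6668 to 9358 in mutants and 9137 to 19160 in controls. Of 6 macrophage and microglia markers 5 fell, with sums of 1924 to 3659 and 4624 to 6131, and none of 8 mural cell markers passed the test, with sums of 3469 to 4135 and 3213 to 5841. Of 7 choroid plexus markers Clic6 rose and Kl fell, with sums of 969 to 3797 in mutants, where mutant 1 was highest, and 839 to 1322 in controls. The high sum of mutant 1 came from Ttr. Its intensity was 2841, 111, 55.3 and 60.5 in mutants 1 to 4 and 71.2 to 168 in controls. Of 6 astrocyte markers Gjb6 alone fell, with sums of 1165 to 2363 in mutants and 1851 to 3010 in controls. Gjb6 itself read 465 to 889 in mutants and 1182 to 1758 in controls, a large part of these sums. Of 4 tested markers of dura and skull Dlx5 rose, which interneurons also express, and Alpl fell, with sums of 769 to 1032 and 383 to 639. The higher sum of mutants came from Dlx5, which read 469 to 600 in mutants and 15.8 to 66.7 in controls. Alpl read 248 to 346 in mutants and 314 to 462 in controls. The part of these cell types in the results below was not tested.

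**Figure D2:**
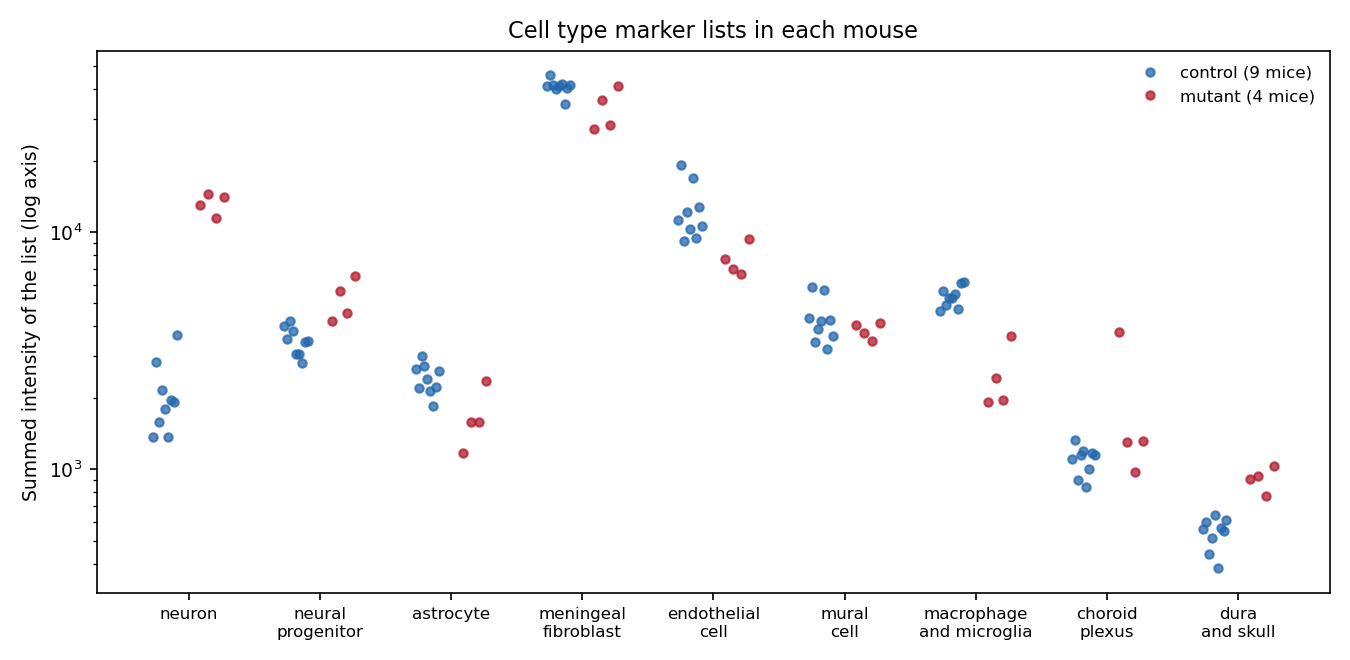
Summed intensity (log axis) of 9 cell type marker lists in each mouse, controls (n = 9) in blue and mutants (n = 4) in red. The neuron sums of mutants, 11430 to 14450, lie above those of all controls, and the macrophage and microglia sums of mutants, at most 3659, lie below them.

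Among the 19 ligands, Wnt6 and Wnt4 fell while Wnt7b and Wnt7a rose. WNT6 is a ligand of epithelia and of the neural crest, WNT4 is best known from the development of the kidney and the female gonad, and WNT7A and WNT7B are close relatives that neural tissue supplies to the vessels of the brain. Promoter windows ran from 250 bases before to 50 bases after the start site. Of the members that passed the test, only Wnt6, Wnt4, Wnt7a, Dkk2, Fzd4 and Sfrp2 were matched among the RefSeq (GRCm38.p6) start sites used here. The 4 windows below are shown because they belong to ligands and modulators of both directions, and capitals mark the GC box GGGCGG and the TATA box TATAAA on either strand (on the other strand they read CCGCCC and TTTATA), with neighbouring matches run together. Wnt6 is at chr1:74771642-74771941 (plus strand), Wnt7a at chr6:91411304-91411603 (minus strand), Dkk2 at chr3:132085042-132085341 (plus strand) and Sfrp2 at chr3:83766071-83766370 (plus strand).
Wnt6 (fell): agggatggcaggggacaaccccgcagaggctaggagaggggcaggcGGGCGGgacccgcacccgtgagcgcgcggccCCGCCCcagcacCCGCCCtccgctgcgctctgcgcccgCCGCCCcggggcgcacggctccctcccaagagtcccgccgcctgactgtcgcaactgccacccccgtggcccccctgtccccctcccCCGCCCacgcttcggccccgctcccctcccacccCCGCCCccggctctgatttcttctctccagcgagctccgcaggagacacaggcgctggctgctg
Wnt7a (rose): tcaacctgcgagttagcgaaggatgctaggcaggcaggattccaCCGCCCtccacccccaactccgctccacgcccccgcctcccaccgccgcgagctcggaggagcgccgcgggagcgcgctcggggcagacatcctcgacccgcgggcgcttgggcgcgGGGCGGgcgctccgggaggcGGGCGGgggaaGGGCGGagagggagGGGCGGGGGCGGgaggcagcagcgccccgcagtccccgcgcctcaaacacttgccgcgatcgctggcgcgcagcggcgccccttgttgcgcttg
Dkk2 (fell): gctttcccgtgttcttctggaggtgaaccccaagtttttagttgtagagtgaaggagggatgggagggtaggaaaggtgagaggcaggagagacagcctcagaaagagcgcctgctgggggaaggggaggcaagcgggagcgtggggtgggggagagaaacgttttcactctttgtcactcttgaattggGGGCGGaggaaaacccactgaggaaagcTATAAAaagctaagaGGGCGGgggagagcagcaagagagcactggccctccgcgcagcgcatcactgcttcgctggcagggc
Sfrp2 (rose): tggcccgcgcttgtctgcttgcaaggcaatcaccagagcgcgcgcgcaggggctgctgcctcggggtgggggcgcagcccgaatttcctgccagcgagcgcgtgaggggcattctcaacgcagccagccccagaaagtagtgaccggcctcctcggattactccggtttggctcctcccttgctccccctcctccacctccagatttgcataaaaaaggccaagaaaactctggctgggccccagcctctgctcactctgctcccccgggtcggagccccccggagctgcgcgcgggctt

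The windows of the 6 members held 57.7% to 84.3% G and C and 11 to 51 CpG dinucleotides, both above the medians of all 32851 mouse windows, 52.7% and 7. The GC box was found 6 times in Wnt6 and 6 times in Wnt7a and in 35.7% of all windows, and the Sfrp2 window held none. Only Dkk2 of the 6 had the TATA letters, 32 bases before its start site, beside 13.6% of all windows. The TCF/LEF letters CTTTGAA or CTTTGAT, read on both strands, were in 0 of the 6 windows and in 8.65% of all windows. Among the 21 other members with windows they were found in 1 window each of Dkk1, Wnt11 and Wnt5b. A match of letters is a description of the window and not a binding site.

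Wnt6 intensity was 93.5, 60.0, 60.2 and 61.6 in mutants 1 to 4, and ran from 142 to 242 in controls with a median of 184. Mutant 1 was the highest mutant and still lay below the lowest control. The means were 68.8 ± 16.5 (SD, n = 4) and 181 ± 33.5 (SD, n = 9), a log2 fold change of -1.22 (SE 0.15, adjusted p = 5.85e-06), or 2.33-fold lower. Its gene neighbour Wnt10a, a ligand of tooth and skin appendage development, was nearly level, with a difference of 0.10 on that scale (adjusted p = 0.915).

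Wnt4 intensity was 183, 109, 104 and 143 in mutants 1 to 4 and 116 to 341 in controls, with a median of 249. The groups overlapped, and 6 of 9 controls lay above the highest mutant. The means were 135 ± 36.6 (SD, n = 4) and 233 ± 72.7 (SD, n = 9), a log2 fold change of -0.69 (SE 0.22, adjusted p = 0.0408). A second, dimmer Wnt4 probe set read 37.9 to 86.2 in mutants and 73.2 to 125 in controls. Of the 11 calls this was the least stable. It passed the test under 12 of 28 alternative settings and was lost without mutant 2, 3 or 4 (adjusted p = 0.141, 0.153 and 0.0717) or without any one of controls 2, 4, 5, 7, 8 and 9 (adjusted p from 0.0605 to 0.0683). Its log2 fold change became -0.51 (adjusted p = 0.225) centred on reference genes and -0.29 (adjusted p = 0.320) centred on meningeal fibroblast genes.

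Wnt7b intensity was 137, 103, 102 and 117 in mutants 1 to 4 and 24.8 to 63.7 in controls, with a median of 39.9. Every mutant exceeded every control. The means were 115 ± 16.3 (SD, n = 4) and 40.8 ± 12.9 (SD, n = 9), a log2 fold change of 1.23 (SE 0.17, adjusted p = 2.01e-05), or 2.34-fold higher, which was the largest rise of the 41 members. Wnt7a intensity was 84.7, 82.0, 61.6 and 101 in mutants 1 to 4 and 24.3 to 65.9 in controls, with a median of 45.4. The groups overlapped by 1 mouse on each side, since control 4 (65.9) exceeded mutant 3 (61.6). The means were 82.2 ± 15.98 (SD, n = 4) and 45.3 ± 12.1 (SD, n = 9), a log2 fold change of 0.69 (SE 0.16, adjusted p = 0.00550). Control 1 had the lowest and control 4 the highest intensity of both genes among the controls. Both rises stood beside neuron marker sums that were higher in every mutant than in every control. Control 9, the control with the highest neuron sum (3671), had 52.3 for Wnt7b and 51.7 for Wnt7a. Control 4 had 63.7 and 65.9 at a neuron sum of 2148, and control 2 had 28.7 and 40.4 at 2843. The part of neuron RNA in both rises was not tested.

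The other 15 ligands did not pass the test. Wnt5a, a ligand that often signals without β-catenin, averaged 524 ± 161 (SD, n = 4) for mutants and 584 ± 78.2 (SD, n = 9) for controls, with a log2 fold change of -0.19 and a 95% confidence interval from -0.53 to 0.15. Wnt9b ranged widely among the controls, from 208 to 575, and its log2 fold change of 0.05 had an interval from -0.50 to 0.61. Wnt16 came nearest to a call of these, at a log2 fold change equal to -0.38 (adjusted p = 0.148). It passed the test with array weights (adjusted p = 0.0319), quantile normalization (0.00701), centring on the array median (0.00909) and without mutant 4 (0.0440). Centring on meningeal fibroblast genes turned the Wnt16 log2 fold change to 0.01 with no call (adjusted p = 0.927). The log2 fold changes of Wnt8a (-0.16), Wnt5b (-0.15), Wnt3a (-0.10), Wnt1 (0.0044), Wnt3 (0.03), Wnt2b (0.05), Wnt8b (0.06), Wnt10b (0.07), Wnt9a (0.10), Wnt11 (0.16) and Wnt2 (0.20) were small beside their intervals. Wnt1, Wnt2, Wnt8a and Wnt8b lay among the dimmest 25% of tested genes, where a change is hard to detect. Wnt1 and Wnt10b, Wnt3 and Wnt9b, and Wnt3a and Wnt9a are also gene neighbours in the annotation, and none of the 6 passed the test.

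**Figure D3:**
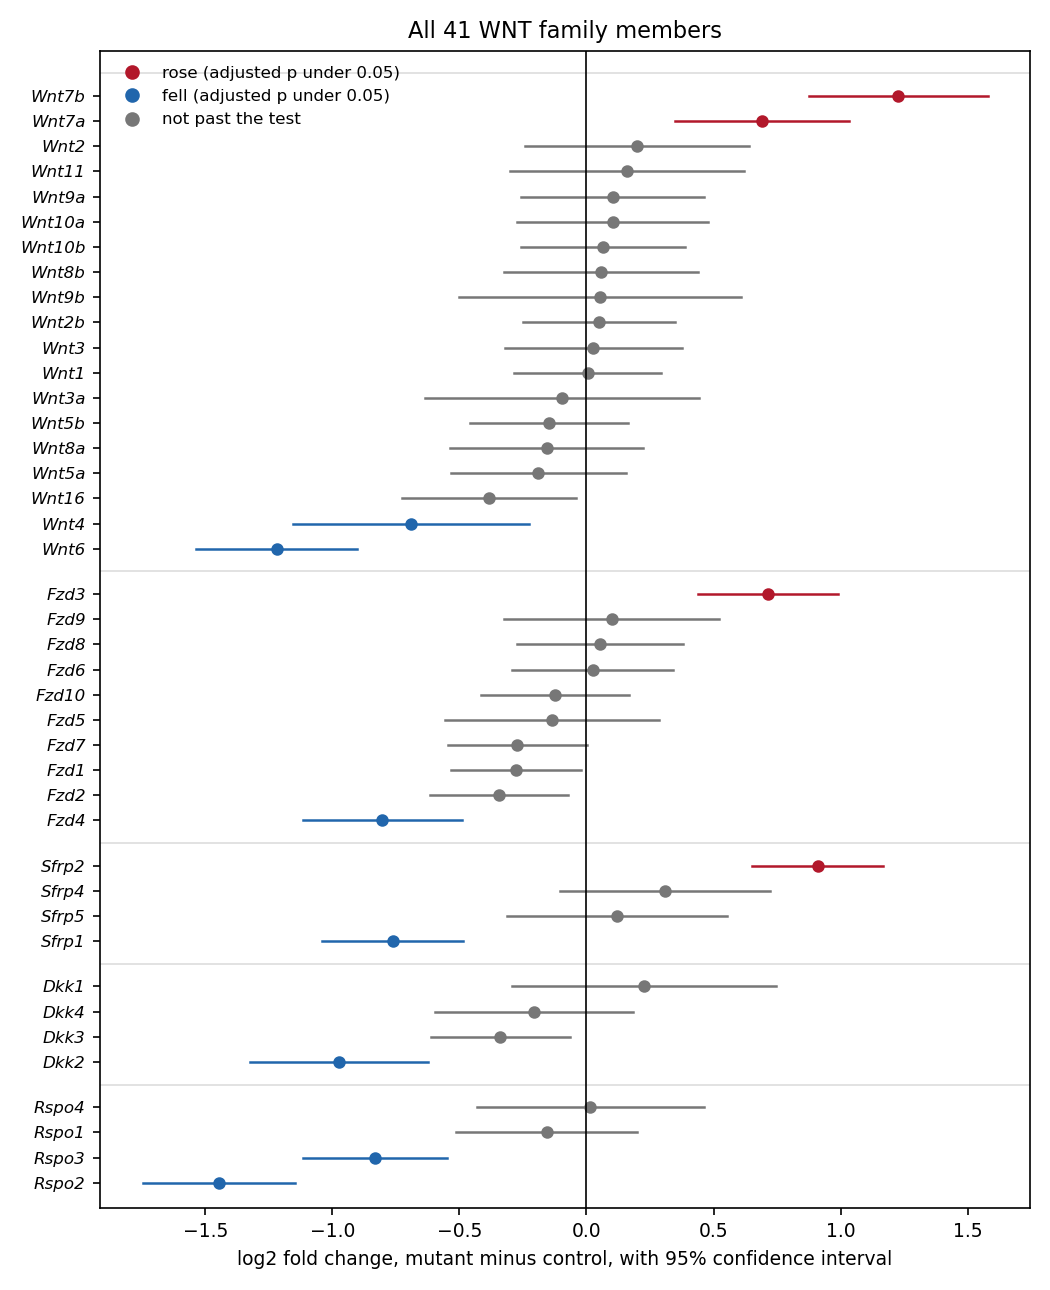
Log2 fold change of mutants (n = 4) minus controls (n = 9) for all 41 members by family, with 95% confidence intervals. Rises are in red, falls in blue and members not past the test in grey, whose intervals all stay within a 2-fold change either way.

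Of the 10 frizzleds, the 7-pass membrane receptors of WNT, Fzd4 fell and Fzd3 rose. FZD4 is the receptor of norrin as well as of WNT in vessels of the retina and the brain, and FZD3 is known for its part in axon guidance and planar cell polarity. Fzd4 intensity was 160, 186, 164 and 222 in mutants 1 to 4 and 250 to 453 in controls, with a median of 320. All mutants lay below all controls. The means were 183 ± 28.2 (SD, n = 4) and 334 ± 64.2 (SD, n = 9), a log2 fold change of -0.80 (SE 0.15, adjusted p = 6.15e-04), or 1.75-fold lower. It stood beside falls of 6 of 10 endothelial markers, such as Kdr (1.90-fold lower) and Cldn5 (1.78-fold lower), and their part in it was not tested.

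Fzd3 intensity was 333, 421, 333 and 381 in mutants 1 to 4 and 177 to 284 in controls, with a median of 214. Every mutant exceeded every control, and the highest control was control 9, which also had the highest neuron sum of the controls. The means were 367 ± 42.6 (SD, n = 4) and 218 ± 32.5 (SD, n = 9), a log2 fold change of 0.71 (SE 0.13, adjusted p = 5.51e-04), or 1.64-fold higher. The part of neuron RNA in the Fzd3 difference was not tested.

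The other 8 frizzleds did not pass the test. Fzd2 (-0.34, adjusted p = 0.0868), Fzd1 (-0.28, adjusted p = 0.161) and Fzd7 (-0.27, adjusted p = 0.215), receptors of 1 subfamily, had the most negative log2 fold changes of these. All of them passed as falls with quantile normalization and with centring on the array median, and Fzd2 also with array weights, while centring on meningeal fibroblast genes turned the log2 fold changes of Fzd2, Fzd1 and Fzd7 to 0.05, 0.12 and 0.12 with no call. Fzd6, a bright receptor with means of 724 ± 165 (SD, n = 4) for mutants and 707 ± 116 (SD, n = 9) for controls, had a log2 fold change of 0.02 and an interval from -0.29 to 0.34. The log2 fold changes of Fzd5 (-0.13), Fzd10 (-0.12), Fzd8 (0.05) and Fzd9 (0.10) also had intervals that included 0.

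The secreted frizzled-related proteins split, as Sfrp1 fell and Sfrp2 rose. Sfrp1 intensity was 467, 566, 430 and 606 in mutants 1 to 4 and 741 to 1069 in controls, with a median of 859. All mutants lay below all controls. The means were 517 ± 82.8 (SD, n = 4) and 887 ± 108 (SD, n = 9), a log2 fold change of -0.76 (SE 0.13, adjusted p = 2.97e-04), or 1.70-fold lower. Sfrp2 intensity was 190, 168, 147 and 167 in mutants 1 to 4 and 70.9 to 99.9 in controls, with a median of 79.7. Every mutant exceeded every control, with little spread in either group. The means were 168 ± 17.6 (SD, n = 4) and 82.0 ± 11.2 (SD, n = 9), a log2 fold change of 0.91 (SE 0.12, adjusted p = 1.67e-05), or 1.88-fold higher. Sfrp4 (0.31, adjusted p = 0.424) and Sfrp5 (0.12, adjusted p = 0.914) did not pass the test, and Sfrp5 was among the dimmest 25% of genes. Frzb, the gene of SFRP3, which the symbol rule leaves out, did not pass the test either (-0.04, adjusted p = 0.987).

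Dkk2 was the member of the Dickkopf family that fell. DKK2 binds LRP5 and LRP6 and lowers or raises the WNT signal according to the cell. Dkk2 intensity was 80.4, 141, 117 and 94.0 in mutants 1 to 4 and 164 to 324 in controls, with a median of 218. All mutants lay below all controls, and control 1 was the highest mouse. The means were 108 ± 26.5 (SD, n = 4) and 228 ± 50 (SD, n = 9), a log2 fold change of -0.97 (SE 0.17, adjusted p = 2.78e-04), or 1.97-fold lower. Dkk3, a bright gene and a divergent relative of the other Dickkopf genes, was 628 ± 124 (SD, n = 4) and 791 ± 73.6 (SD, n = 9) and its log2 fold change was -0.34 (adjusted p = 0.0987). It passed as a fall with quantile normalization (adjusted p = 0.00251), with centring on the array median (0.00670) and without mutant 4 (0.0347). Centring on meningeal fibroblast genes turned the Dkk3 log2 fold change to 0.06 with no call (adjusted p = 0.564). The classical inhibitor Dkk1 (0.23, adjusted p = 0.778) ranged from 88.9 to 179 in mutants and from 40.7 to 145 in controls, and Dkk4 (-0.21, adjusted p = 0.671) was among the dimmest 25% of genes.

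Of the R-spondins, which bind the receptors LGR4, LGR5 and LGR6 and hold back the ubiquitin ligases ZNRF3 and RNF43, Rspo2 and Rspo3 fell. Rspo2 intensity was 67.5, 120, 97.4 and 89.2 in mutants 1 to 4 and 244 to 351 in controls, with a median of 268. Every mutant had less than the lowest control, by a wide gap between 120 and 244. The means were 93.5 ± 21.7 (SD, n = 4) and 280 ± 41.2 (SD, n = 9), a log2 fold change of -1.45 (SE 0.14, adjusted p = 2.74e-07), or 2.73-fold lower, the largest change of the 41 members in either direction. Rspo3 intensity was 59.1, 88.5, 70.5 and 80.2 in mutants 1 to 4 and 119 to 173 in controls, with a median of 150. All mutants lay below all controls. The means were 74.6 ± 12.7 (SD, n = 4) and 145 ± 21.7 (SD, n = 9), a log2 fold change of -0.83 (SE 0.14, adjusted p = 1.50e-04), or 1.78-fold lower. Mutant 1 was the lowest mouse for both genes, and control 5 the highest. Rspo1 (-0.16, adjusted p = 0.771) and the dim Rspo4 (0.02, adjusted p = 0.994) did not pass the test. The falls of Wnt6, Dkk2, Sfrp1, Rspo2 and Rspo3 stood beside lower endothelial and macrophage markers and beside mixed fibroblast markers. Of these 14 markers 4 fell, such as Ptgds (2.76-fold lower) and Crabp2 (2.38-fold lower), Col1a1 (1.42-fold higher) and Col3a1 (1.45-fold higher) rose, and 8 did not pass the test. The part of these cell types in the falls was not tested.

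All 30 members without a call had a 95% confidence interval inside a 2-fold change either way, 26 of these intervals included 0, and Wnt16, Fzd2, Dkk3 and Fzd1 had an unadjusted p under 0.05. The spread between mice of 1 group was wide for many members, with a highest over lowest intensity above 2 in the controls for 18 of 41 and in the mutants for 13 of 41. Centring on meningeal fibroblast genes added Wnt2b, Wnt9a, Fzd6, Fzd8, Fzd10 and Sfrp4 as rises, and quantile normalization added Wnt5b as a fall (adjusted p = 0.0180). Apart from Wnt4, the called members kept direction and call under all 28 alternative settings. The log2 fold changes nearest to 0 in those settings were -1.05 for Rspo2, -0.82 for Wnt6, -0.58 for Dkk2, -0.43 for Rspo3, -0.41 for Fzd4, -0.37 for Sfrp1, 0.57 for Wnt7a, 0.62 for Fzd3, 0.81 for Sfrp2 and 1.02 for Wnt7b.

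**Figure D4:**
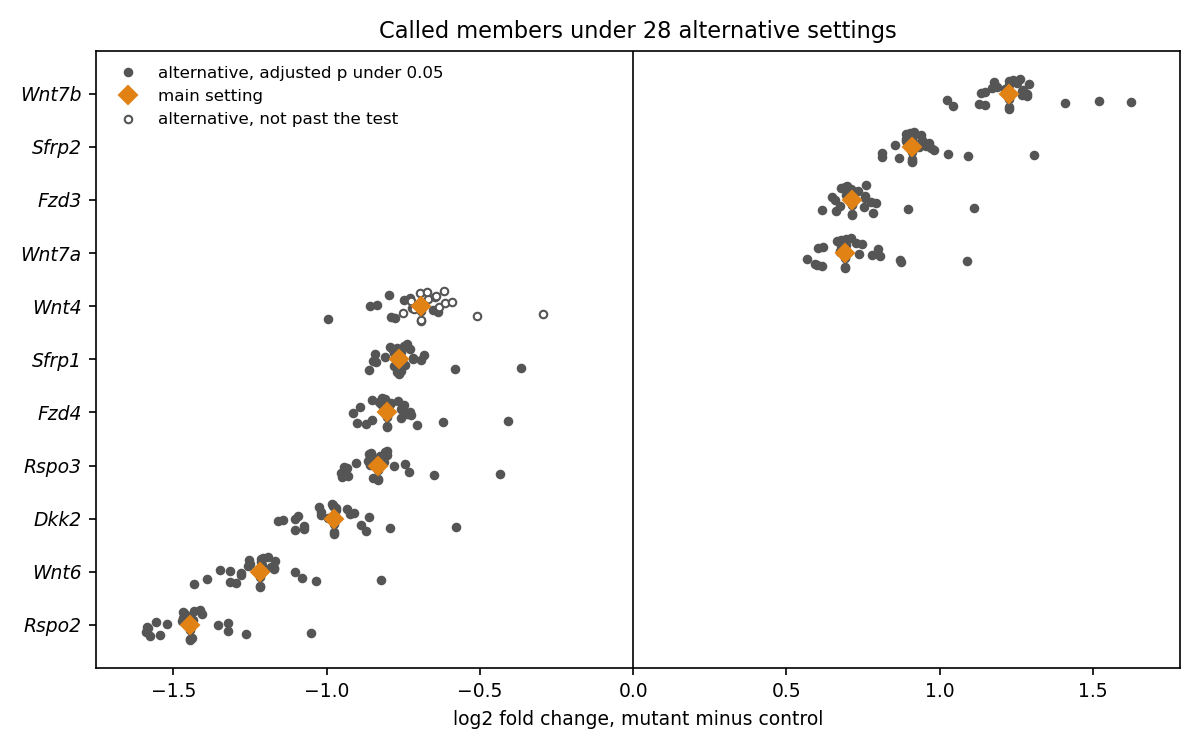
Log2 fold change (mutants minus controls) of the 11 called members under the main setting (orange diamonds) and 28 alternative settings, filled where the adjusted p stayed under 0.05 and open where it did not. Open points occur for Wnt4 alone, and no point crosses 0.

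Of 65 other genes of the pathway, in 5 lists by role, 11 rose (16.9%, beside 8.58% of all tested genes) and 4 fell (6.15%, beside 6.31%), with a median log2 fold change of -0.03. None of the 12 co-receptors and other receptors passed the test (14.9% of all tested genes did), and their median was -0.18. The log2 fold change was -0.24 for the co-receptor Lrp6 (adjusted p = 0.254), -0.20 for the R-spondin receptor Lgr4 (adjusted p = 0.580), and -0.15 (adjusted p = 0.706) and -0.37 (adjusted p = 0.0749) for Adgra2 and Reck, which let endothelial cells sense WNT7A and WNT7B.

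Of 17 genes of WNT secretion, norrin and other inhibitors, with a median of -0.02, Tpbg and Draxin rose and Wls and Notum fell. Each direction made up 11.8% of the list, while 8.58% of all tested genes rose and 6.31% fell. Tpbg, the gene of a membrane protein that dampens the β-catenin signal, was 313, 290, 263 and 310 in mutants 1 to 4 and 119 to 284 in controls (1.86-fold higher, adjusted p = 0.00155), with the groups overlapping at the highest control. Draxin, a secreted axon guidance protein that also opposes WNT, was 116, 68.3, 56.9 and 79.1 in mutants 1 to 4 and 15.6 to 54.5 in controls (1.80-fold higher, adjusted p = 0.00501), with no overlap. Wls, whose protein carries WNT ligands to the cell surface, was 1024, 1618, 1199 and 1565 in mutants 1 to 4 and 1555 to 2265 in controls (1.42-fold lower, adjusted p = 0.0182). Mutants 2 and 4 lay within the range of the controls. Notum, an enzyme that strips the lipid from WNT, was 105, 104, 91.6 and 159 in mutants 1 to 4 and 113 to 221 in controls (1.49-fold lower, adjusted p = 0.0226), and mutant 4 lay among the controls.

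In the cytoplasm and nucleus, 4 of 15 transduction genes rose (26.7%; 8.58% of all tested genes) and none fell (6.31% of all tested genes), with a median of 0.05. Apc, a scaffold of the complex that degrades β-catenin and a partner of microtubules in neurons, was 943, 1291, 1013 and 1298 in mutants 1 to 4 and 456 to 636 in controls (2.03-fold higher, adjusted p = 7.78e-06). Bcl9, a co-activator of β-catenin, was 1.89-fold higher (adjusted p = 7.58e-05), and neither gene overlapped between the groups. The kinase gene Gsk3b (1.41-fold, adjusted p = 0.00926) and the co-activator gene Pygo1 (1.34-fold, adjusted p = 0.0371) rose less. Ctnnb1, the gene of β-catenin itself, averaged 2579 ± 572 (SD, n = 4) for mutants and 2722 ± 292 (SD, n = 9) for controls, and its log2 fold change was -0.10 (adjusted p = 0.879).

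Planar cell polarity genes share frizzleds and dishevelled proteins with the pathway. Of 10 such genes 4 rose (40%; 8.58% of all tested genes) and none fell (6.31% of all tested genes), with a median of 0.28. The atypical cadherins Celsr2 (2.05-fold higher, adjusted p = 1.1e-04) and Celsr3 (1.99-fold higher, adjusted p = 1.26e-04) rose together with Daam1 (1.93-fold higher, adjusted p = 2.1e-05), a formin downstream of frizzled, and Prickle2 (1.62-fold higher, adjusted p = 0.00121). In all 4 genes every mutant exceeded every control, as in 6.4% of all tested genes. Celsr3 and Prickle2 are known from neurons, and the rises of Apc, Bcl9, Celsr2, Celsr3, Daam1 and Prickle2 stood beside those of all 10 neuron markers, whose part in them was not tested.

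Of 11 tested β-catenin target and feedback genes, Nkd2 rose (9.09%; 8.58% of all tested genes) and Lef1 and Tnfrsf19 fell (18.2%; 6.31%), with a median of -0.24. Axin2, the most widely used readout of the β-catenin signal, was 354, 418, 320 and 544 in mutants 1 to 4 and 385 to 628 in controls. The groups overlapped, and its log2 fold change was -0.20 (adjusted p = 0.551). Lef1, the gene of a TCF/LEF factor, was 230, 188, 183 and 242 in mutants 1 to 4 and 217 to 510 in controls, with mutants 1 and 4 inside the range of the controls (1.56-fold lower, adjusted p = 0.0119). Tnfrsf19 was 1.42-fold lower (adjusted p = 0.0208) and Nkd2, the gene of an inhibitor of dishevelled, 1.42-fold higher (adjusted p = 0.0214).

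The rises of Tpbg, Apc, Bcl9, Celsr2, Celsr3 and Daam1 were called under all 28 alternative settings. The other 5 rises were called under 17 (Pygo1), 21 (Nkd2), 26 (Gsk3b), 27 (Draxin) and 27 (Prickle2) of them, and the 4 falls under 19 (Notum), 20 (Wls), 20 (Tnfrsf19) and 22 (Lef1). All 4 falls lost the call among the mice with Eif2s3y above Xist alone, with the Xist level as a covariate and with centring on meningeal fibroblast genes. The number of pathway genes that fell was 1, 2, 1 and 7 without mutant 1, 2, 3 or 4. These were 1.54%, 3.08%, 1.54% and 10.8% of the pathway genes, beside 3.9%, 5.4%, 3.9% and 7.47% of all tested genes.

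**Figure D5:**
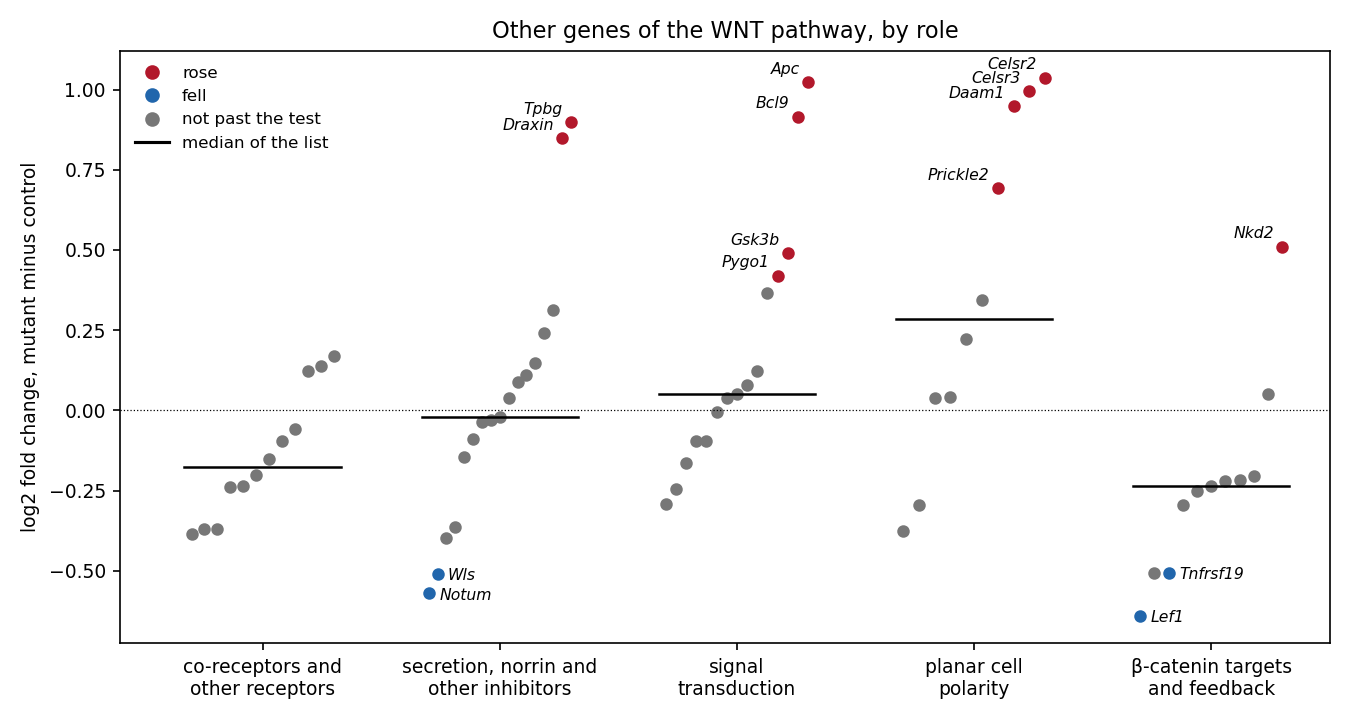
Log2 fold change (mutants minus controls) of 65 other genes of the pathway in 5 lists by role, rises in red, falls in blue and genes not past the test in grey, with a bar at each list's median. Genes past the test are named, and the co-receptor list has none.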

How the data were processed

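Total RNA of the cerebral meninges of 13 newborn mice (4 mutants, 9 controls, 1 litter) was measured on 1 array each. The deposited values are probe set intensities that the authors derived from raw array data with PLIER. Its version, background step and scaling between arrays are not given in the sources used here. The intensities were read as linear and, since array medians differ, as not normalized to 1 distribution. Arrays have no read depth, and the number of mice limits the precision.

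Of 35557 probe sets, 21789 carried 1 symbol of the platform annotation, 1621 carried several and 12147 were left unnamed, as that annotation does not list them. Of the first, 21698 were matched by gene ID to the mouse annotation, which changed 0 symbols. The brightest probe set by mean over all mice stood for a gene that had several (999 genes), which gave 19938 tested genes. Tcf7 of the pathway lists was not tested, for want of a probe set with its symbol alone.

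Mutants and controls were compared on log2(intensity + 16) with limma 3.58.1 (lmFit, eBayes, two-sided) in R 4.3.3, after tests on simulated data, with Benjamini-Hochberg adjustment over all tested genes. The 95% confidence intervals come from the same fit. All members are named, values by mouse are given for those past the test, and of each other list up to 4 called genes with the smallest adjusted p are named. The other genes named from these lists, such as Axin2, Ctnnb1, Lrp6, Lgr4, Adgra2, Reck and Frzb, were chosen after their values were seen. The members and all gene lists were chosen with earlier results of these data known, so no count over them is independent evidence. The 28 alternatives changed 1 choice each. Of these, 3 changed the test (the t-test of the methods, unequal variances, array weights), and 4 changed the scaling (quantile normalization, or arrays centred on their own median, a reference gene list or the meningeal fibroblast list). Constants of 1 and 32, the mean over probe sets in place of the brightest, and a run without the dimmest 25% of genes changed the values. The Xist covariate, the block by replicate number, the restriction to mice with Eif2s3y above Xist, the run without the 4 dimmest arrays and the runs without each of the 13 mice changed the mice or the design. The labels give no batch, and none was modelled. Promoter windows came from a table of RefSeq start sites that was used here, in which 27 of the 41 members were matched. Plots used matplotlib 3.10.9 (Python 3.11.15).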

Additional observations from a re-analysis of the deposited data

Results flagged for a closer look

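In 3 of 82 groups of mice examined, a single mouse stood apart from the rest of its group (chance flags about 1 in 20 groups). Mutant 1 was the highest mutant for Wnt6, at 93.5 beside 61.6 for the next, and it still lay below all controls. Mutant 3 was the lowest mutant for Fzd8, at 147 beside 223 for the next, and for Wnt2b, at 53.3 beside 76.2. Its array had the lowest median intensity of the mutants (84.6), and it was the lowest mutant for 27 of the 41 members. The part of array brightness in these values was not tested.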

How the results depend on the processing

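Of the 11 members called, 10 kept direction and call under all 28 alternatives, and Wnt4 under 12. The methods' t-test, unequal variances, centring on reference genes, a constant of 1 and the Xist covariate gave 4 rises (9.76%) and 6 falls (14.6%), without Wnt4. In that order 8.41%, 5.71%, 17.8%, 8.06% and 5.74% of all tested genes rose, and 6.13%, 2.01%, 4.08%, 5.68% and 3.03% fell. Array weights gave 4 rises (9.76%; 10.2% of all tested genes) and 9 falls (22%; 10.1%). With quantile normalization 13 members fell (31.7%; 18.1% of all tested genes), with array median centring 12 fell (29.3%; 14.4%), and with fibroblast centring 10 rose (24.4%; 43.7%), including Fzd10 (0.27, adjusted p = 0.0404), whose sign had been negative. Over all genes the median log2 fold change moved to 0.19 after reference centring, 0.40 after fibroblast centring and -0.11 with array weights, so called directions are relative to these shifts. Reference genes B2m, Sdha and Gusb fell, and the fibroblast list itself held called genes. Leaving out each mouse gave 4 to 4 rises (9.76%) and 6 to 8 falls (14.6% to 19.5%). In these runs 6.68% to 9.55% of all tested genes rose and 3.9% to 7.47% fell. At the threshold of the methods (p under 0.05 and fold over 2), the methods' t-test counted 1 member higher (2.44%; 3.28% of all tested genes) and 2 lower (4.88%; 0.797%), and after Benjamini-Hochberg 4 (9.76%; 8.41%) and 6 (14.6%; 6.13%).

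Of the other pathway genes, 32 rose with fibroblast centring (49.2%; 43.7% of all tested genes). Falls numbered 1 with unequal variances (1.54%; 2.01%), 11 with array weights (16.9%; 10.1%), 19 with quantile normalization (29.2%; 18.1%), 14 with array median centring (21.5%; 14.4%) and 2 with reference centring (3.08%; 4.08%). They numbered 0 with fibroblast centring, the Xist covariate, the mice with Eif2s3y above Xist alone and the block by replicate number, where 2.26%, 3.03%, 3.23% and 2.73% of all tested genes fell. Leaving out each mouse gave 9 to 12 rises (13.8% to 18.5%; 6.68% to 9.55% of all tested genes) and 1 to 7 falls (1.54% to 10.8%; 3.9% to 7.47%). The cause of these differences was not tested.

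Replicate numbers did not pair the mice (correlations of same-numbered mice -0.34, 0.16, 0.31 and -0.09). Blocking by that number, 4 members rose (9.76%; 6.44% of all tested genes) and 6 fell (14.6%; 2.73%). Wnt4 was not among them (-0.63, adjusted p = 0.133), and the pathway falls were 0. Only mutants 1 to 4 and controls 1 to 4 inform that fit. The dimmest members (Wnt1, Wnt2, Wnt8a, Wnt8b, Dkk4, Rspo4 and Sfrp5) were not tested where the dimmest 25% of genes were left out.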
